A study of Homo sapiens with 12 samples.

Results

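The genes described here encode the nuclear pore and the soluble factors that carry cargo through it, and they were measured in K562 cells treated with 2 inhibitors of the BCR-ABL kinase. They were taken by symbol: NUP, IPO, XPO, TNPO, RANBP, KPNA or KPNB followed by a number, plus XPOT, RAN, RANGAP1, RCC1, CSE1L and NUTF2. This rule uses no measured values, but the members were chosen with earlier results of these data known. A probe set counted where its platform annotation named a single gene. This gave 53 of the 11963 genes on the array, read by 120 probe sets, and 51 of these 53 were among the 8021 genes bright enough to be tested. IPO8 (signal 17.0 to 93.2 over the arrays) and KPNA5 (2.12 to 111) were too dim, and NUTF2 had only a probe set that also names NUTF2P4. The symbol rule also takes RANBP9, RANBP10 and NUP62CL, which are not core parts of the transport machinery.

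K562 is an established human line grown from a chronic myelogenous leukaemia in blast crisis, and it depends on the BCR-ABL fusion kinase of the Philadelphia chromosome. Imatinib (STI571) binds the kinase domain of ABL, and nilotinib (AMN107) is a later compound built on the imatinib scaffold. The series holds 12 arrays in 3 groups of 4, all of total RNA from this one line after 24 h. The groups are nilotinib at 0.05 µM (arrays 1 to 4), imatinib at 0.5 µM (arrays 5 to 8) and the DMSO solvent control (arrays 9 to 12). The doses of the drugs differ, so a difference between the drugs below is one between these treatments as given. The labels do not say whether the 4 arrays of a group came from separate cultures, so each p-value reflects the spread among those arrays alone, and that spread may be technical.

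The nuclear pore is a ring-shaped channel through the nuclear envelope. Its scaffold of outer and inner rings is anchored in the membrane, its central channel is filled with flexible phenylalanine-glycine repeat proteins, and filaments extend into the cytoplasm and into the nucleus. Importins and exportins bind cargo and pass through these repeats, and the small GTPase Ran sets the direction: Ran bound to GTP is abundant in the nucleus, where it releases import cargo and helps load export cargo. The pore is taken apart and rebuilt when a human cell divides.

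Signals are linear MAS5 values, scaled so that the trimmed mean of each array is close to 500. Within a group, the correlation of log2 signals across genes between 2 arrays was 0.976 to 0.981 for DMSO, 0.968 to 0.972 for imatinib and 0.941 to 0.961 for nilotinib. Several measures of the arrays moved with the groups. The median signal of all probe sets was 117 to 121 on the DMSO arrays, 135 to 155 on the imatinib arrays and 166 to 194 on the nilotinib arrays. The 28S ribosomal control read 5277 to 5550, 18636 to 21436 and 21127 to 26130 in the same order, and the median of the bacterial controls 5.60 to 8.79, 9.27 to 18.9 and 12.8 to 24.7. The actin 3′/5′ ratio, a measure of RNA integrity and labelling, was above 3.5 on 4 arrays, nilotinib 1 and 2 and imatinib 5 and 6. The part of these measures in the results was not tested. Of 8 markers of K562, 7 had a single-gene probe set and all 7 passed the filter. Their summed signal ran from 33222 to 36683 on the DMSO arrays, from 52193 to 58559 on those of imatinib and from 60747 to 65979 on those of nilotinib. The brightest of them were TFRC, with means of 16817, 19543 and 20911, and HBE1, with means of 10694, 20054 and 25183, in the same order. The sums over markers of other cell types, on the DMSO, imatinib and nilotinib arrays in turn, were 370 to 511, 215 to 448 and 419 to 642 for the 3 T cell markers, all above the filter. They were 106 to 206, 59.2 to 252 and 45.7 to 313 for B cells (1 of 2 measured markers above the filter), and 307 to 566, 324 to 621 and 695 to 765 for fibroblasts (2 of 4), a sum that was higher with nilotinib. The monocyte sum of 2856 to 3152, 1980 to 2719 and 1692 to 2368 came mostly from LYZ, whose means were 2940, 2318 and 1986, while CD14 had means of 6.16, 5.70 and 15.5 and was below the filter, as was FCN1. The part of these markers in the results was not tested. In RNA from a whole culture, fewer cells of a kind and less RNA per cell cannot be told apart.

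Genes of the nuclear pore and of nuclear transport were more often lower than higher with both drugs. A gene was called where limma's adjusted p over all 8021 genes was under 0.05. With imatinib, 21 of the 51 members fell (41.2%) and 8 rose (15.7%), against 17.3% of all genes called lower and 22.0% called higher. With nilotinib, 27 fell (52.9%) and 9 rose (17.6%), against 23.5% and 34.7% of all genes. The members were brighter than the tested genes as a whole: their median log2 signal averaged 10.1 over the DMSO arrays, against 8.90. The shares over all genes changed with brightness. Above a filter at the 60th percentile (5700 genes), 23.5% were lower and 26.7% higher with imatinib, and 30.6% and 32.6% with nilotinib. The part of brightness in the members' counts was not tested. The median log2 fold change of the members was -0.23 with imatinib and -0.30 with nilotinib, where the medians over all genes tested were 0.09 and 0.15. Centring each array on its median shifted all genes downwards. It gave 27 of the 51 members lower and 3 higher with imatinib, and 37 lower and 3 higher with nilotinib. Of all genes, 28.4% were then lower and 10.2% higher with imatinib, and 49.2% and 10.4% with nilotinib. Fold changes are on the scale of log2(signal + 16). Both comparisons share the DMSO arrays, so their likeness is not independent. The nucleoporins and the soluble factors differed in their counts. Of 21 nucleoporins, 10 fell (47.6%) and 1 rose (4.76%) with imatinib, and 16 fell (76.2%) and 1 rose (4.76%) with nilotinib. Of 27 transport factors, 9 fell (33.3%) and 6 rose (22.2%) with imatinib, and 9 fell (33.3%) and 7 rose (25.9%) with nilotinib. Among all genes 17.3% were lower and 22.0% higher with imatinib, and 23.5% and 34.7% with nilotinib. The shares of the transport factors were nearer to these than those of the nucleoporins.

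**Figure D1:**
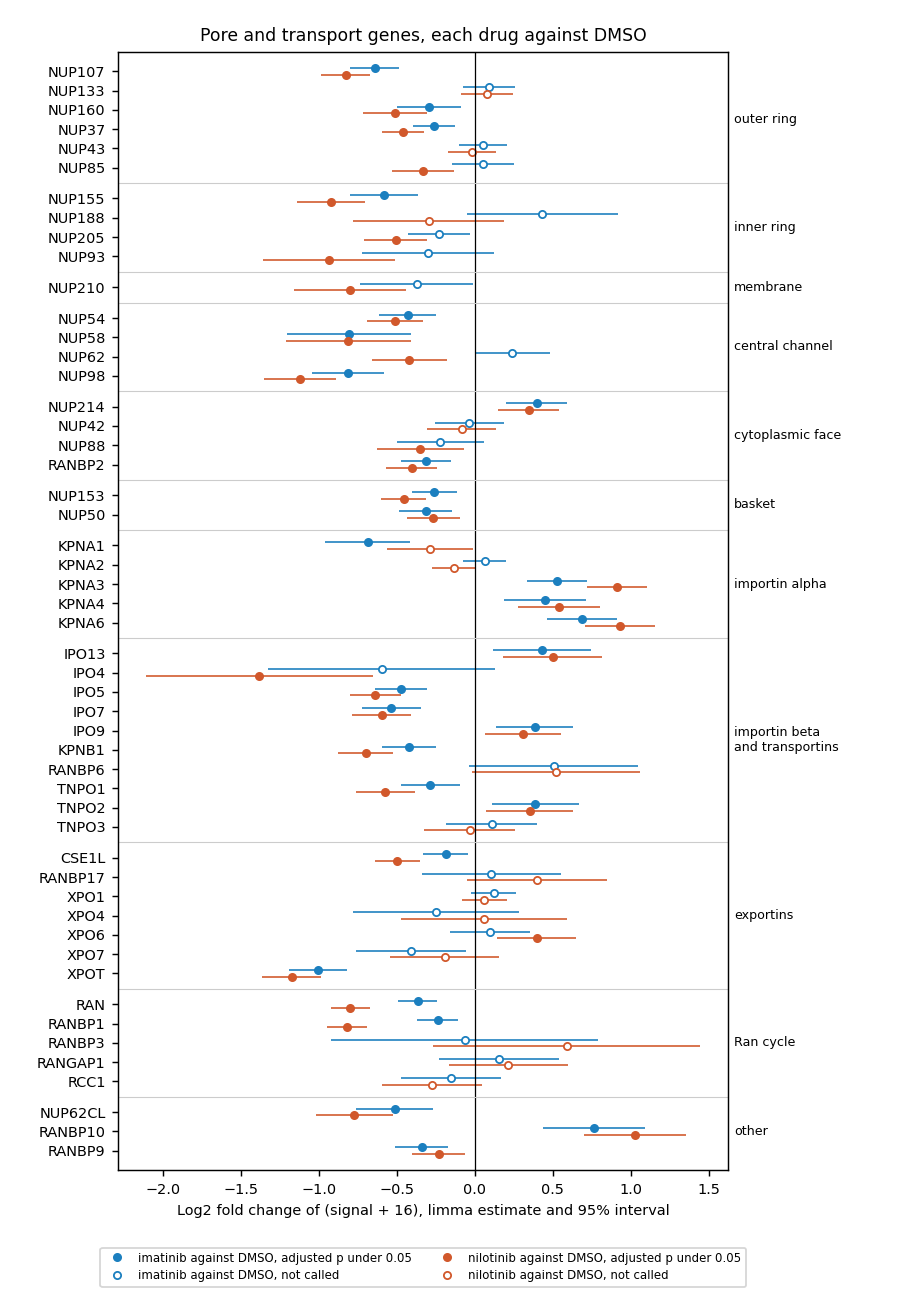
Log2 fold change of each of the 51 genes against DMSO, with imatinib and with nilotinib, grouped by role; bars are 95% confidence intervals from limma, 4 arrays a group. Most nucleoporins lie left of 0, while KPNA3, KPNA4, KPNA6 and RANBP10 lie right of 0 with both drugs.

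The outer ring is the Y-shaped scaffold complex on both faces of the pore. Of its 6 measured members, 3 fell with imatinib and 4 with nilotinib, and none rose. NUP107, a core subunit needed for pore assembly, averaged 3063 ± 40.7 (SD, n = 4) with DMSO, 1960 ± 117 with imatinib and 1724 ± 161 with nilotinib. No treated array reached the DMSO range. Its log2 fold change was -0.64 ± 0.07 (SE) with imatinib (adjusted p = 1.18e-06) and -0.83 ± 0.07 with nilotinib (adjusted p = 2.27e-08). NUP37 fell by 0.26 on the log2 scale with imatinib and by 0.46 with nilotinib, and NUP160 by 0.29 and 0.51. The imatinib call of NUP160 (adjusted p = 0.0229) was lost when imatinib 7, imatinib 8, DMSO 9 or DMSO 10 was left out, and with its probe sets averaged. NUP85 fell with nilotinib (log2 fold change -0.33 ± 0.09, adjusted p = 0.00552), and its imatinib value was 0.05 ± 0.09 (adjusted p = 0.706). NUP133 (0.09 and 0.08) and NUP43 (0.05 and -0.02) were not called with either drug, so the subunits of this one complex did not share a call.

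The inner ring joins the scaffold to the membrane and to the channel. Of its 4 measured members, 1 fell with imatinib and 3 with nilotinib. NUP155, which contacts the membrane, averaged 956 ± 71.8 (SD, n = 4) with DMSO, 633 ± 66.7 with imatinib and 497 ± 29.2 with nilotinib. The groups did not overlap, and the log2 fold changes were -0.58 ± 0.10 (adjusted p = 1.68e-04) and -0.92 ± 0.10 (adjusted p = 4.76e-07). NUP93, a linker of the ring, read 674, 588, 838 and 644 with DMSO, 475, 465, 544 and 759 with imatinib, and 351.1, 246, 564 and 298 with nilotinib. The nilotinib arrays all lay below the DMSO arrays, while imatinib 8 lay inside the DMSO range. NUP93 fell with nilotinib (log2 fold change -0.94 ± 0.20, adjusted p = 6.44e-04) and had -0.30 ± 0.20 with imatinib (adjusted p = 0.258). NUP205 fell with nilotinib by 0.51 on the log2 scale, and had -0.23 ± 0.10 with imatinib (adjusted p = 0.0653). NUP188, the large relative of NUP205, was dim and was called against DMSO with neither drug. The membrane protein NUP210 fell with nilotinib (log2 fold change -0.80 ± 0.17, adjusted p = 6.25e-04), and its imatinib value of -0.37 ± 0.17 did not pass the threshold. Its 5 probe sets ran from -0.80 to 0.36 with nilotinib, and their average of -0.11 was not called.

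All 4 measured members of the central channel fell with nilotinib, and 3 of them with imatinib. NUP98, a repeat protein that also binds the RNA export factor RAE1, read 1106, 903, 980 and 1015 with DMSO. It read 547, 641, 521 and 546 with imatinib, and 405, 521, 452 and 428 with nilotinib. Every treated array was below the lowest DMSO array. The log2 fold changes were -0.81 ± 0.11 (adjusted p = 8.11e-06) and -1.12 ± 0.11 (adjusted p = 7.28e-08). These values rest on the brightest of 3 NUP98 probe sets: the others had -0.15 and 0.16 with imatinib, and -0.06 and 0.12 with nilotinib. NUP58, a partner of NUP62 in the channel, read 296, 319, 257 and 283 with DMSO, 199, 153, 135 and 149 with imatinib, and 174, 144, 132.6 and 182 with nilotinib. All treated arrays were below all DMSO arrays, and NUP58 fell by 0.81 ± 0.19 with each drug on the log2 scale (adjusted p = 0.0022 and 0.00132). NUP54, the other partner, fell by 0.43 and by 0.51. NUP62 itself read 1338, 1424, 1069 and 1284 with DMSO, 1354, 1792, 1398 and 1512 with imatinib, and 924, 1145, 942 and 805 with nilotinib. NUP62 fell with nilotinib (log2 fold change -0.42 ± 0.12, adjusted p = 0.00446), and with imatinib it had 0.24 ± 0.12 (adjusted p = 0.109). Its other probe set above the filter had -0.31 with nilotinib and -0.20 with imatinib.

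On the cytoplasmic face, RANBP2, a large repeat protein that binds Ran and acts as a SUMO ligase, read 2420, 2272, 2160 and 2296 with DMSO. It read 1830, 1817, 1698 and 2017 with imatinib, and 1785, 1551, 1838 and 1720 with nilotinib, with no overlap with DMSO. The log2 fold changes were -0.31 ± 0.08 (adjusted p = 0.00298) and -0.41 ± 0.08 (adjusted p = 1.82e-04). RANBP2 has near-identical copies in the genome that its probes may also read, and its other probe sets gave 0.04 and -0.16 with imatinib and 0.53 and 0.03 with nilotinib. NUP214, a docking site for exportins, was the only one of the 21 nucleoporins taken by symbol that rose, with 0.40 ± 0.09 for imatinib (adjusted p = 0.00243) and 0.34 ± 0.09 for nilotinib (adjusted p = 0.00451). Its nilotinib value turned to -0.18 when each array was centred on its median. Its partner NUP88 fell with nilotinib by 0.35 on the log2 scale (adjusted p = 0.0303), a call lost without nilotinib 4, DMSO 9 or DMSO 12. NUP42 was not called.

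Both measured members of the nuclear basket fell with both drugs. NUP153, which tethers the basket, read 3600, 3189, 3414 and 3083 with DMSO, 2558, 2837, 2833 and 2849 with imatinib, and 2490, 2297, 2448 and 2409 with nilotinib. The 3 groups did not overlap. Its log2 fold changes were -0.26 ± 0.07 (adjusted p = 0.00502) and -0.46 ± 0.07 (adjusted p = 1.51e-05). NUP50, a mobile cofactor of importin alpha, fell by 0.32 and by 0.27, and not all of its probe sets moved the same way. Its nilotinib call was lost under cyclic loess.

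The importin alphas are adaptors that bind nuclear localisation signals. Of 5 measured, 3 rose with both drugs (KPNA3, KPNA4 and KPNA6), 1 fell with imatinib (KPNA1) and KPNA2 was not called. Averaging the probe sets of each gene gave 2 higher and 0 lower with imatinib, and 2 higher and 1 lower with nilotinib, where the median of the 5 went from 0.54 to -0.074. KPNA3 read 784, 610, 700 and 770 with DMSO, 1071, 1056, 1041 and 963 with imatinib, and 1408, 1400, 1333 and 1267 with nilotinib. The 3 groups were apart, in that order. Its log2 fold changes were 0.52 ± 0.09 (adjusted p = 1.41e-04) and 0.91 ± 0.09 (adjusted p = 1.08e-07). KPNA6 read 629, 649, 553 and 637 with DMSO, 891, 903, 1167 and 1069 with imatinib, and 1279, 1017, 1253 and 1224 with nilotinib. It rose by 0.69 ± 0.11 (adjusted p = 3.84e-05) and by 0.93 ± 0.11 (adjusted p = 5.95e-07) on the log2 scale, and every treated array was above every DMSO array. KPNA4, the closest relative of KPNA3, read 761, 773, 533 and 893 with DMSO, 1126, 980, 983 and 922 with imatinib, and 1143, 1134, 1026 and 964 with nilotinib. Its log2 fold changes were 0.45 ± 0.13 (adjusted p = 0.00771) and 0.54 ± 0.13 (adjusted p = 0.00129), but its other probe set had -0.08 and -0.69. Under median centring KPNA3 and KPNA6 kept their calls with both drugs, and KPNA4 lost both. KPNA4 also lost both calls with its probe sets averaged, and its imatinib call without the 4 arrays of high actin ratio. KPNA1, a relative of KPNA6, read 848, 771, 847 and 843 with DMSO, 577, 544, 442 and 473 with imatinib, and 620, 912, 604 and 603 with nilotinib. KPNA1 fell with imatinib (log2 fold change -0.69 ± 0.13, adjusted p = 3.04e-04). With nilotinib it had -0.29 ± 0.13 (adjusted p = 0.0653), where nilotinib 2 lay above all DMSO arrays and the other 3 lay below them. KPNA2, the form tied to proliferating cells, read 5626, 5480, 5340 and 4923 with DMSO, 5772, 5786, 5391 and 5341 with imatinib, and 5459, 4665, 4634 and 4720 with nilotinib. These ranges overlapped, and neither difference was called (0.06 ± 0.07 and -0.13 ± 0.07). These values rest on the brightest KPNA2 probe set. Its other probe set had 0.19 with imatinib and -0.36 with nilotinib. In a limma fit over all probe sets above the filter, their adjusted p-values were 0.0604 and 6.29e-04, so the 2 probe sets differed in call with nilotinib.

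Of the 10 measured importin betas and transportins, 4 fell and 3 rose with imatinib, and 5 fell and 3 rose with nilotinib. KPNB1, importin beta itself and the partner of the importin alphas, read 6114, 8080, 7104 and 6008 with DMSO. It read 4850, 5184, 4944 and 5229 with imatinib, and 4417, 3757, 4349 and 4165 with nilotinib. The 3 groups were apart, with log2 fold changes of -0.42 ± 0.08 (adjusted p = 4.53e-04) and -0.70 ± 0.08 (adjusted p = 9.75e-07). All 6 of its probe sets were below 0, from -0.52 to -0.08 with imatinib and from -0.70 to -0.24 with nilotinib. IPO5 and IPO7, importers of ribosomal proteins and histones among other cargo, fell as well, IPO5 by 0.47 and 0.64 and IPO7 by 0.54 and 0.60 on the log2 scale. TNPO1, the receptor of several RNA-binding proteins, fell by 0.29 (adjusted p = 0.0182) and by 0.57 (adjusted p = 3.17e-05). Its imatinib call was lost without imatinib 5, imatinib 8 or DMSO 10, and under quantile normalization. IPO4 read 366, 444, 419 and 330 with DMSO, 223, 295, 288 and 208 with imatinib, and 110, 286, 43.6 and 236 with nilotinib. Each treated array lay below each DMSO array, but the nilotinib arrays were far apart. With imatinib IPO4 had -0.60 ± 0.35 (adjusted p = 0.186) and was not called. IPO4 fell with nilotinib (log2 fold change -1.38 ± 0.35, adjusted p = 0.00228), a value that was -0.92 without nilotinib 3 and -1.70 without nilotinib 2, and stayed called in both cases.

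The importers that rose were IPO9, IPO13 and TNPO2, each with both drugs. IPO9 had 0.38 ± 0.12 and 0.31 ± 0.12, IPO13 had 0.43 ± 0.15 and 0.50 ± 0.15, and TNPO2, a close relative of TNPO1, had 0.39 ± 0.13 and 0.35 ± 0.13 on the log2 scale. Several of these calls rested on single arrays. The imatinib call of IPO13 was lost without imatinib 5, 6 or 8 or DMSO 9 or 10, that of IPO9 without DMSO 11, and that of TNPO2 without imatinib 6 or 7 or DMSO 11 or 12. With nilotinib, IPO9 lost its call without nilotinib 2 or 3 or DMSO 10 or 11, and TNPO2 without nilotinib 3 or 4 or DMSO 11 or 12. Under median centring the nilotinib values were -0.22 for IPO9, -0.03 for IPO13 and -0.17 for TNPO2, and each gene lost its call with both drugs. IPO13 also lost both calls under quantile normalization and cyclic loess, and its imatinib call with no filter and without the 4 arrays of high actin ratio. TNPO2 lost both calls with no variance trend. IPO9 lost its nilotinib call with no variance trend and without those 4 arrays. TNPO3, which imports splicing factors, and RANBP6 were called with neither drug.

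Among the 7 measured exportins, 2 fell with imatinib, and 2 fell and 1 rose with nilotinib. XPOT, which exports transfer RNA, had the largest fall of all 51 members with imatinib. It read 6096, 6385, 5905 and 5505 with DMSO, 3134, 3491, 2776 and 2529 with imatinib, and 2935, 2613, 2388 and 2624 with nilotinib. No treated array came near the DMSO range. XPOT was 2.01-fold lower with imatinib (log2 fold change -1.01 ± 0.09, adjusted p = 3.11e-08) and 2.26-fold lower with nilotinib (-1.17 ± 0.09, adjusted p = 2.08e-09). CSE1L, which returns importin alpha to the cytoplasm, read 2557, 2470, 2320 and 2504 with DMSO, 2197, 2232, 2021 and 2197 with imatinib, and 1799, 1647, 1669 and 1846 with nilotinib. The groups did not overlap. The nilotinib value of -0.50 ± 0.07 (adjusted p = 6.51e-06) was kept without each array in turn. The imatinib value of -0.19 ± 0.07 (adjusted p = 0.0382) lost its call without imatinib 5, 7 or 8 or DMSO 9, 10 or 12. That call was also lost under quantile normalization, under cyclic loess and with no variance trend. XPO1, the main exporter of proteins with a leucine-rich export signal, read 4674, 4980, 4425 and 4565 with DMSO, 5307, 5632, 4664 and 4702 with imatinib, and 4867, 4636, 4948 and 4967 with nilotinib. The ranges overlapped, with 0.12 ± 0.07 (adjusted p = 0.181) and 0.06 ± 0.07 (adjusted p = 0.469). Under median centring, however, XPO1 had -0.46 with nilotinib (adjusted p = 2.83e-04). XPO6, the exporter of actin, rose with nilotinib by 0.40 ± 0.12 (adjusted p = 0.00968), and had -0.13 under median centring. The other XPO6 probe set had 0.02 with nilotinib and -0.32 with imatinib, and the nilotinib call was lost with the probe sets averaged. XPO4, XPO7 and RANBP17 were called with neither drug.

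**Figure D2:**
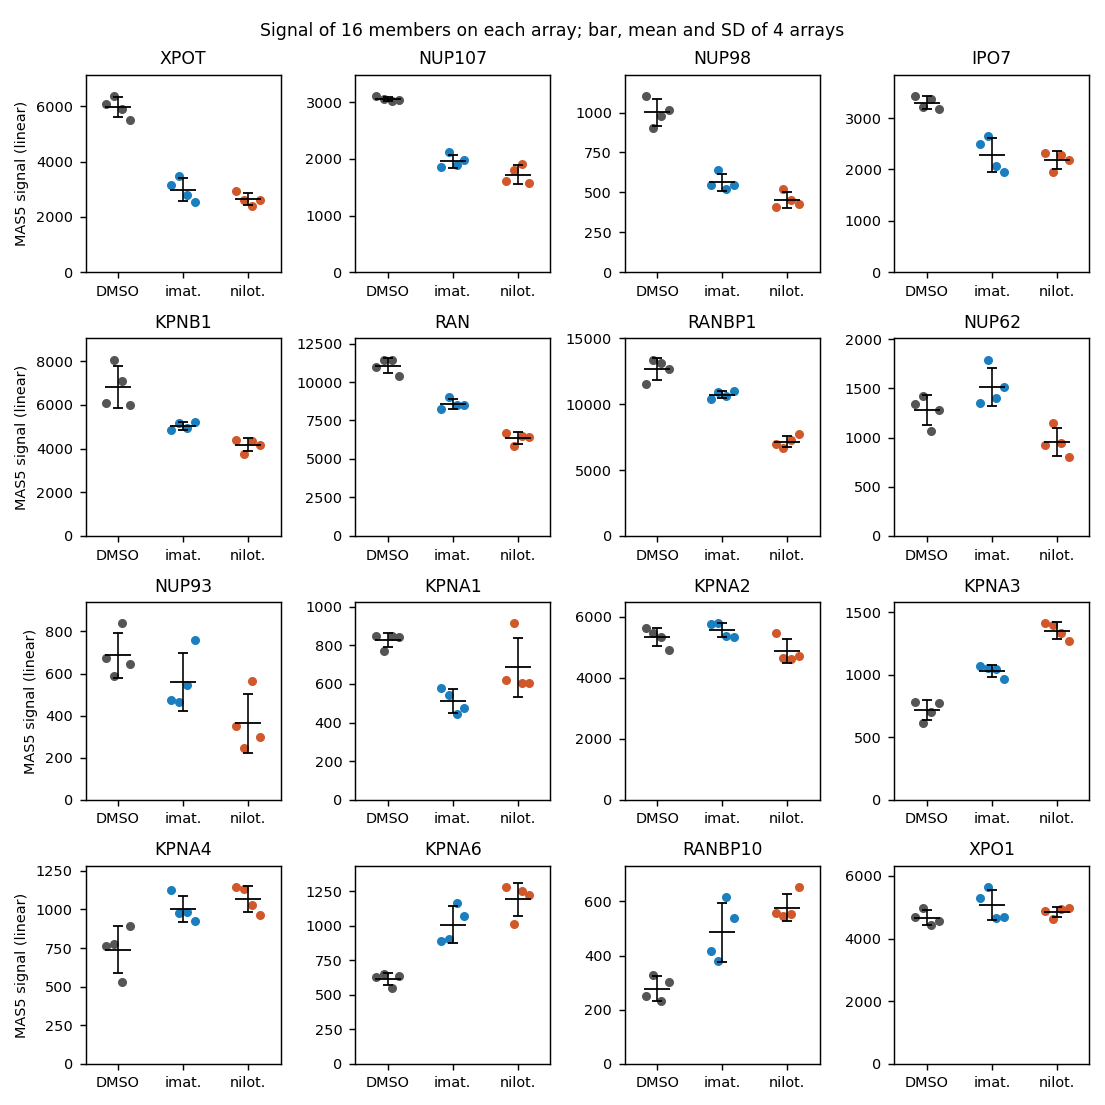
MAS5 signal on each of the 12 arrays for 16 members, one panel a gene with its own linear axis from 0; points are arrays, and the bars give the mean and SD of the 4 arrays of a group. RAN and RANBP1 step down from DMSO to imatinib to nilotinib, KPNA3 steps up, and the XPO1 ranges overlap.

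In the Ran cycle, the GTPase and a cofactor fell and its regulators were not called. RAN read 10980, 11411, 11455 and 10377 with DMSO, 8221, 9048, 8478 and 8517 with imatinib, and 6702, 5823, 6464 and 6413 with nilotinib. The 3 groups were far apart. The log2 fold changes were -0.37 ± 0.06 (adjusted p = 6.59e-05) and -0.80 ± 0.06 (adjusted p = 1.67e-09), and its other probe set had -0.90 and -1.59. RANBP1, which helps RANGAP1 to act on Ran, read 11552, 13395, 13159 and 12650 with DMSO, 10429, 10899, 10593 and 10984 with imatinib, and 6967, 6688, 7292 and 7715 with nilotinib. It fell by 0.24 ± 0.06 (adjusted p = 0.00413) and by 0.82 ± 0.06 (adjusted p = 1.51e-09) on the log2 scale. Its 2 dimmer probe sets differed, with 1.08 and 0.17 for imatinib and 0.90 and -0.01 for nilotinib, and the probes may read related copies. RCC1, the nucleotide exchange factor that charges Ran in the nucleus, read 561.9, 504, 586 and 595 with DMSO, 445, 370, 672 and 569 with imatinib, and 527, 422, 418 and 485 with nilotinib. RANGAP1, which triggers hydrolysis of GTP in the cytoplasm, read 255, 210, 307 and 290 with DMSO, 260, 221, 371 and 348 with imatinib, and 319, 351.2, 253 and 314 with nilotinib. For both genes the ranges overlapped. RCC1 had -0.16 ± 0.15 and -0.27 ± 0.15, and RANGAP1 had 0.15 ± 0.18 and 0.21 ± 0.18. RANBP3, a cofactor of XPO1, was dim and was not called.

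Of the 3 genes taken by symbol alone, RANBP10 had the largest rise of all members with both drugs. It read 249, 327, 231 and 304 with DMSO, 415, 379, 615 and 538 with imatinib, and 558, 548, 552 and 652 with nilotinib. Its log2 fold changes were 0.76 ± 0.16 (adjusted p = 6.55e-04) and 1.02 ± 0.16 (adjusted p = 1.95e-05), with no overlap with DMSO. Its relative RANBP9 fell by 0.34 and by 0.23, the nilotinib call being lost without nilotinib 3 or DMSO 11. That call was also lost under quantile normalization, under cyclic loess and with no variance trend. NUP62CL fell by 0.51 and by 0.77.

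Nilotinib was then set against imatinib directly, which does not use the DMSO means. Of the 51 members, 11 were lower with nilotinib (21.6%) and 2 were higher (3.92%), against 8.22% and 5.82% of all genes. Among the brighter genes above a filter at the 60th percentile, 12.3% were lower and 6.54% higher. The members' median was -0.09, and that of all genes 0.05. Under median centring 33 of the 51 members were lower and 0 higher, where the shares of all genes were 33% and 0.948%. RANBP1 (log2 fold change -0.58 ± 0.06, 95% interval -0.71 to -0.45, adjusted p = 1.63e-05) and RAN (-0.43 ± 0.06, interval -0.56 to -0.31, adjusted p = 1.61e-04) had the smallest p-values. NUP62 (-0.66 ± 0.12, adjusted p = 0.00118), CSE1L (-0.31 ± 0.07, adjusted p = 0.00649) and NUP85 (-0.38 ± 0.09, adjusted p = 0.0118) followed. Every nilotinib array was below every imatinib array for RAN, RANBP1, NUP62, CSE1L and NUP85. KPNA3 was higher with nilotinib (0.38 ± 0.09, adjusted p = 0.0102), again with no overlap. The calls of RAN, RANBP1, NUP62, CSE1L, NUP85 and KPNA3 were kept without each array in turn, and those of RAN, NUP62 and NUP85 under all 25 alternatives. The other probe set of NUP62, however, had only -0.11 between the drugs. Without the 4 arrays of high actin ratio, CSE1L (-0.26) and KPNA3 (0.37) lost the call, each with an adjusted p of 0.117. KPNA3 also lost it under median centring (0.086, adjusted p = 0.585) and with its probe sets averaged (0.22, adjusted p = 0.14), as did RANBP1 with its probe sets averaged (-0.31, adjusted p = 0.148).

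The other 7 calls between the drugs were near the threshold. NUP188 read 176, 374, 275 and 201 with DMSO, 253, 324, 430 and 371 with imatinib, and 242, 176, 243 and 146 with nilotinib. The nilotinib arrays were below the imatinib arrays (log2 fold change -0.73 ± 0.23, adjusted p = 0.042), and both ranges overlapped that of DMSO. NUP155 had -0.34 ± 0.10, NUP93 -0.64 ± 0.20, KPNB1 -0.28 ± 0.08, TNPO1 -0.29 ± 0.09 and NUP37 -0.20 ± 0.06, with adjusted p-values from 0.0339 to 0.0453. KPNA1 was higher with nilotinib (0.40 ± 0.13, adjusted p = 0.0473), a call kept under 8 of 25 alternatives. Its 5 other probe sets had -0.24, -0.21, -0.13, 0.22 and 0.23, and the average over probe sets was 0.045 (adjusted p = 0.822). Each of these 7 lost its call when one of several arrays was left out, and imatinib 6 was such an array for all 7. The count of members lower with nilotinib was 5 without imatinib 6, 6 without imatinib 7, 7 without imatinib 8 and 6 without nilotinib 4. The count of those higher was 1 without nilotinib 2, imatinib 6, 7 or 8 or any of the DMSO arrays. XPOT (-0.17 ± 0.09, interval -0.36 to 0.02), NUP58 (-0.01 ± 0.19, interval -0.40 to 0.39), KPNA2 (-0.20 ± 0.07, interval -0.34 to -0.06) and XPO1 (-0.06 ± 0.07, interval -0.20 to 0.08) were not called. The unadjusted intervals of XPOT, NUP58 and XPO1 hold differences in either direction, and that of KPNA2 lies below 0 although its adjusted p was 0.0576. The other KPNA2 probe set had -0.55 between the drugs (adjusted p = 2.40e-04 in the limma fit over probe sets).

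**Figure D3:**
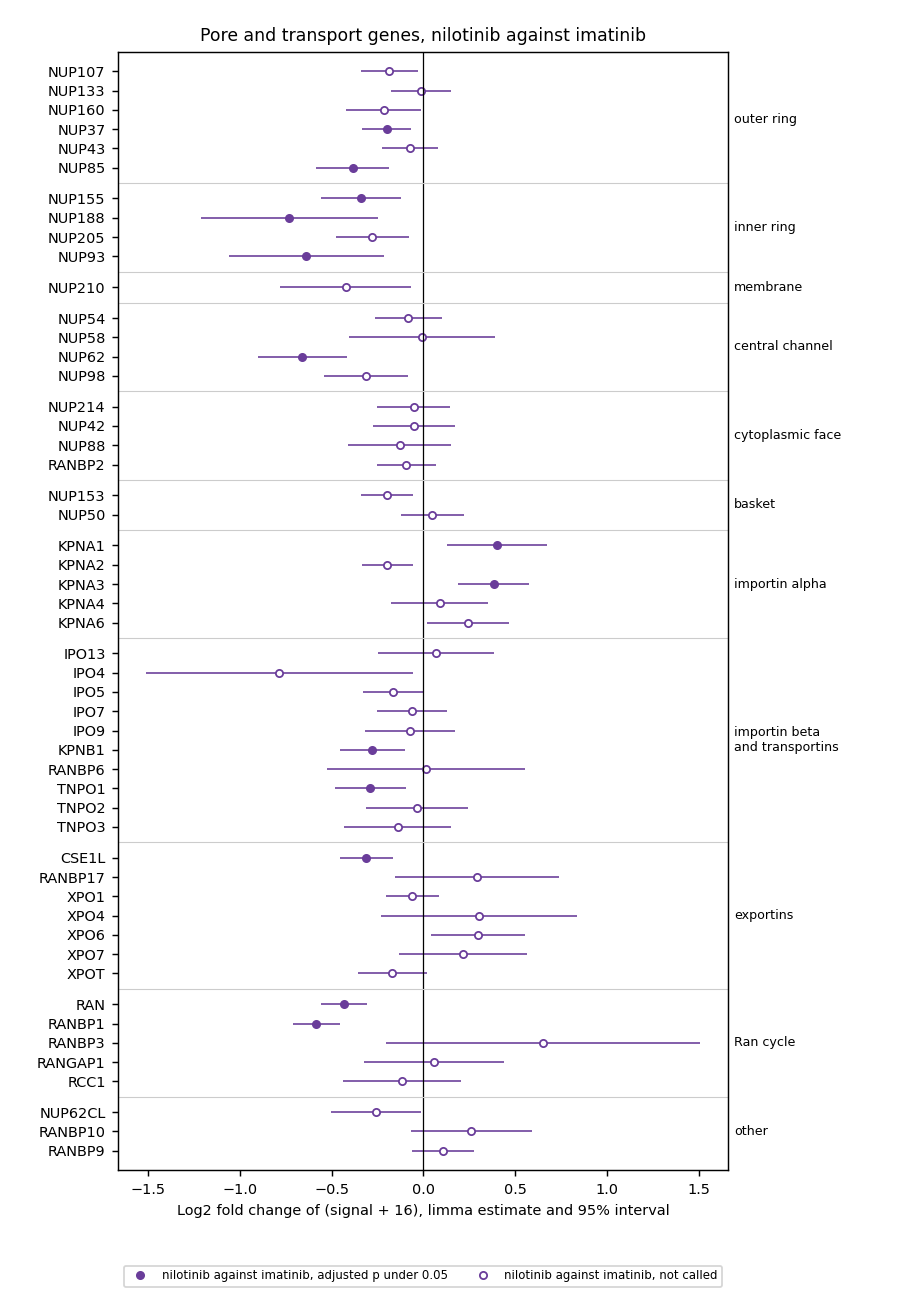
Log2 fold change of each member, nilotinib against imatinib, grouped by role, with 95% confidence intervals from limma; filled points are called genes, and each group has 4 arrays. RANBP1, RAN and NUP62 lie clear of 0 below it, and KPNA3 above it.

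The arrays of high actin ratio fall in both drug groups, 2 in each, so the drugs could be compared within each kind. Among the high-ratio arrays the members' median was -0.20 and 36 of 51 were below 0. Among the others the median was -0.06 and 30 of 51 were below 0, and the median of all genes was 0.05 in both. RAN had -0.46 and -0.40, RANBP1 -0.64 and -0.52, NUP62 -0.59 and -0.73, CSE1L -0.36 and -0.26, and KPNA3 0.40 and 0.37. Since the arrays of the drugs did not overlap for these 5 genes, their sign was bound to be the same in both sets, and only the sizes are informative. XPO1 (-0.20 and 0.08), RANGAP1 (0.45 and -0.33) and RCC1 (0.21 and -0.45) changed sign between them.

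Several members are read by more than 1 probe set, so their agreement could be counted. Of the 30 members with several probe sets above the filter, 20 were called with imatinib, and in 13 of these all probe sets had the same sign. With nilotinib this held for 17 of 23. The exceptions with nilotinib were KPNA4, NUP210, NUP50, NUP98, RANBP1 and RANBP2, and with imatinib KPNA1, KPNA4, KPNA6, NUP50, NUP98, RANBP1 and RANBP2. Between the drugs it held for 6 of 8, and the exceptions were KPNA1 and KPNB1. The 6 probe sets of KPNB1 ran from -0.30 to 0.14 in that comparison. Probe sets of 1 gene can read different transcript ends, and which transcripts these are was not analysed here.

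**Figure D4:**
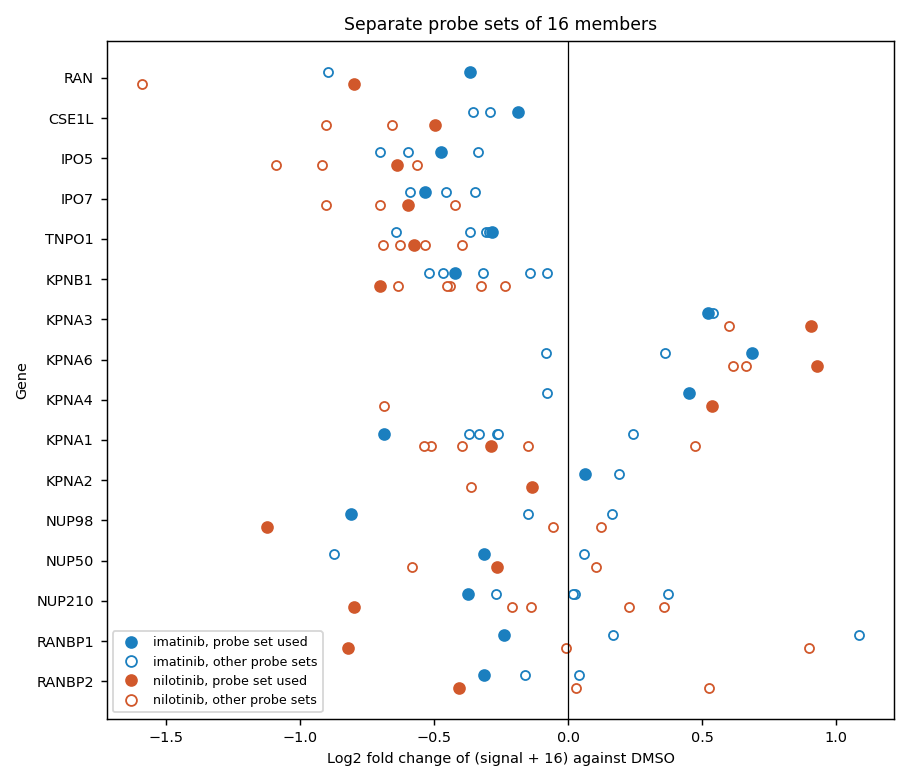
Log2 fold change against DMSO of each probe set above the filter, for 16 members with several; the filled point is the brightest probe set, used for the gene, and open points are the others. RAN and KPNB1 lie on one side of 0 throughout, while NUP98, KPNA4, RANBP1 and RANBP2 lie on both.

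The promoters of the members were searched for 4 short motifs, since genes of growth and transport often carry them. The window was the 250 bases before the annotated start in RefSeq (GRCh38.p14), read on both strands, and 46 of the 51 members were matched. KPNA4, KPNB1, NUP43, RANBP1 and XPO7 were not matched. For 11 members with several starts the first entry was used. The E-box CACGTG, bound by MYC and its relatives, was found in 7 of 46 (15.2%), in 9.07% of the 6638 tested genes with a promoter and in 6.49% of all 27305 promoters. The ETS motif CCGGAAG was found in 12 (26.1%), in 16.1% and in 8.82%. The NRF1 core GCATGCGC was found in 5 (10.9%), in 4.84% and in 2.81%, and the NF-Y motif CCAAT in 21 (45.7%), in 36.2% and in 33%. No matches of 2 different motifs overlapped. Among the 25 matched members that fell with nilotinib, 9 held the ETS motif (36%), 4 the E-box (16%), 3 the NRF1 core (12%) and 10 the NF-Y motif (40%). Among the 8 that rose, 1 held the ETS motif, 2 the E-box, 0 the NRF1 core and 6 the NF-Y motif. Among the 13 not called, 2 held the ETS motif, 1 the E-box, 2 the NRF1 core and 5 the NF-Y motif. A match is only a run of letters, and no binding was measured in these samples.

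The next 4 sequences show the 150 bases before the start, 5′ to 3′ on the gene's strand, for a member that fell and one that rose with an E-box, and for a pair that fell with an ETS motif. Capitals mark the motif, which reads CTTCCGG where the ETS motif lies on the other strand. They come from chr12:130871916-130872065 (RAN, plus strand), chr13:49792683-49792832 (KPNA3, minus strand), chr12:64404242-64404391 (XPOT, plus strand) and chr13:25301475-25301624 (NUP58, plus strand).
RAN: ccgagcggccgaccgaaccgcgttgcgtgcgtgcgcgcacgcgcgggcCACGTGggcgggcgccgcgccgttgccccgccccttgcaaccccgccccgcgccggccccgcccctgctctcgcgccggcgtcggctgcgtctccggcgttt
KPNA3: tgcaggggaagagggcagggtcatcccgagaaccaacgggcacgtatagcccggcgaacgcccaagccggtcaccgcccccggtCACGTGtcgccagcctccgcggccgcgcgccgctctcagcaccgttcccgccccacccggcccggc
XPOT: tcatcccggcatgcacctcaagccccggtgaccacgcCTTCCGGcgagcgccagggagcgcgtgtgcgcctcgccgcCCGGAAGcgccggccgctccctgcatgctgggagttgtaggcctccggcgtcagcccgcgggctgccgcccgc
NUP58: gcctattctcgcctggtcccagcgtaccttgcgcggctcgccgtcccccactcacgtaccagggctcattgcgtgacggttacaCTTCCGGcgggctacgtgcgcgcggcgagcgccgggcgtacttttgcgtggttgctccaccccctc
The E-box begins 102 bases before the start of RAN, which fell, and 66 bases before that of KPNA3, which rose. RAN and KPNA3 are among the 7 matched members with an E-box, and the part of the motif in their changes was not tested. XPOT holds the ETS motif on both strands, 113 and 73 bases before its start, and NUP58 holds it 66 bases before.

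Other genes of the pore, of RNA export and of the nuclear lamina, whose symbols the rule does not take, were listed from knowledge of the pathway. Of 35 listed, 26 were tested: 9 fell (34.6%) and 4 rose (15.4%) with imatinib, against 17.3% and 22.0% of all genes, and 14 fell (53.8%) and 3 rose (11.5%) with nilotinib, against 23.5% and 34.7%. SEH1L, a subunit of the outer ring, averaged 3274 ± 221 (SD, n = 4) with DMSO, 1947 ± 261 with imatinib and 1463 ± 103 with nilotinib. Its log2 fold changes were -0.75 ± 0.09 (adjusted p = 1.54e-06) and -1.15 ± 0.09 (adjusted p = 2.66e-09). The membrane nucleoporin NDC1 fell by 0.91 and 1.02, and AHCTF1, which seeds pore assembly on chromatin, by 0.63 and 0.64. NXT1, a partner of the messenger RNA exporter, fell by 0.70 and by 1.37, and LMNB1, a lamin under the inner membrane, by 0.39 and by 0.73. TPR, which forms the basket filaments, rose by 0.81 ± 0.14 and 0.70 ± 0.14, while its basket neighbours NUP153 and NUP50 fell. The probe sets of NUP50 ran from -0.87 to 0.06 with imatinib and from -0.58 to 0.10 with nilotinib. Values of TPR and the other listed genes rest on the brightest probe set, and whether their other probe sets agree was not examined. POM121, a membrane anchor of the pore, rose by 0.67 ± 0.25 (adjusted p = 0.0414) and 1.17 ± 0.25 (adjusted p = 6.39e-04). Set against imatinib, nilotinib gave lower values of SEH1L (-0.40), NXT1 (-0.68) and LMNB1 (-0.34), 3 of 26 (11.5%) against 8.22% of all genes.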

How the data were processed

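RNA of K562 cells was hybridised to 12 Affymetrix human expression arrays, 1 sample each. The values as deposited are linear intensity signals from MAS5, the tool named in the submitters' processing notes. Its version and settings are not given in the sources used here. Precision is limited by the number of arrays. Signals were set to log2(signal + 16), and probe sets below the 40th percentile of mean log2 signal were left out. The probe set with the highest mean stood for a gene, and only those naming a single gene were used. One mean per group was fitted over all 12 arrays with limma 3.58.1 (lmFit, eBayes with trend) in R 4.3.3, and p-values were adjusted by Benjamini-Hochberg over 8021 genes. This script was tested on simulated data. Per-array signals are given for up to 4 called members per direction and comparison with the largest change whose groups do not overlap, and for 11 genes chosen from knowledge of the pathway (RAN, RCC1, RANGAP1, NUTF2, KPNB1, KPNA2, XPO1, CSE1L, NUP98, NUP153, RANBP2). The members and lists were chosen with earlier results of these data known. Alternatives covered pseudocount, filter, scaling, probe set choice, variance model, samples in the fit and arrays left out.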

Additional observations from a re-analysis of the deposited data

Results flagged for a closer look

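Of 153 groups of 4 arrays tested (51 members in 3 groups), 10 held 1 array that stood far from the other 3: its gap to the nearest, divided by the group's range, passed Dixon's 95% critical value. Chance alone flags about 1 group in 20. KPNA1 had such an array in both the nilotinib group (array 2, signal 912, others 603 to 620) and the DMSO group (array 10, 771, others 843 to 848). Without nilotinib 2, the call of KPNA1 between the drugs was lost. In the imatinib group, array 7 was low for CSE1L (2021, others 2197 to 2232) and for NUP133 (1417, others 1710 to 1767). Array 5 was low for NUP153 (2558, others 2833 to 2849), array 6 was high for TNPO1 (1957, others 1544 to 1600), and array 8 was high for NUP205 (1511, others 1221 to 1246). In the nilotinib group, array 1 was high for KPNA2 (5459, others 4634 to 4720) and for NUP160 (1123, others 932 to 952), and array 4 was high for RANBP10 (652, others 548 to 558).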

How the results depend on the processing

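Each result was recomputed under up to 25 alternatives. Of 1647 values of named genes, 1500 kept direction and side of the threshold, 73 lost it, 40 gained it and 34 changed sign. The counts of members lower with each drug against DMSO stayed within 1.5 times, and the cause of the changes below was not tested. Centring each array on its median moved the medians of all genes to -0.13 (imatinib), -0.37 (nilotinib) and -0.25 (nilotinib against imatinib). It gave members' medians of -0.46, -0.82 and -0.39. Of the 51 members, 27 were lower and 3 higher, 37 lower and 3 higher, and 33 lower and 0 higher, in that order. All genes then had 28.4% lower and 10.2% higher, 49.2% and 10.4%, and 33% and 0.948%. KPNA3, KPNA6 and RANBP10 stayed higher than DMSO with both drugs. Centring also turned, with imatinib, KPNA2 (-0.16), RANGAP1 (-0.072) and XPO1 (-0.11), with nilotinib, RANGAP1 (-0.31) and XPO1 (-0.46), and between the drugs KPNA4 (-0.21), KPNA6 (-0.053), RANBP10 (-0.035) and RANGAP1 (-0.24). Averaging a gene's probe sets gave an imatinib median of -0.14 and turned RANBP1 with imatinib (0.34), KPNA4 (-0.074), RANBP1 (0.022) and RANBP2 (0.050) with nilotinib, and KPNA4 (-0.26), RANBP2 (0.19) and RCC1 (0.051) between the drugs. Quantile normalization turned KPNA2 (0.038) and RANGAP1 (-0.070) with nilotinib, and RANGAP1 (-0.092) and XPO1 (0.052) between the drugs. Cyclic loess turned RANGAP1 (-0.070) with nilotinib, and RANGAP1 (-0.089) and XPO1 (0.045) between the drugs. Without the 4 arrays of high actin ratio, RCC1 had 0.14 with imatinib, and NUP58 0.12, RANGAP1 -0.33 and XPO1 0.082 between the drugs. Between the drugs, members lower numbered 6 with no filter, 6 with no variance trend, 5 with array weights (where NUP58 had 0.00179), 7 with only the 2 groups compared and 4 without the 4 arrays. Members higher numbered 1 under each of these 5 settings and under quantile normalization and cyclic loess. Leaving out 1 array at a time gave 5 to 11 lower and 1 to 2 higher between the drugs, with NUP58 from -0.072 to 0.098, RANGAP1 from -0.069 to 0.17 and RCC1 from -0.26 to 0.020. No paired analysis was possible because the 3 groups share no replicate number in the labels. The number of arrays, 4 a group, limits what can be detected.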

Other observations

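NUTF2, the factor that carries Ran back into the nucleus, is read by a probe set that also names NUTF2P4, so it was not counted among the members. That probe set read 3874, 3466, 3740 and 3793 with DMSO, 3449, 3526, 4034 and 4389 with imatinib, and 2921, 2771, 3240 and 3185 with nilotinib. The nilotinib arrays lay below the others, and the imatinib range held the whole DMSO range. Which of the 2 genes gave the signal cannot be told apart.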
